A study of Mus musculus with 15 samples.

Results

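10 members of the hepatic glucocorticoid response were followed through 15 mouse livers: the glucocorticoid receptor gene Nr3c1, its target genes Fkbp5, Tsc22d3, Sgk1, Zbtb16, Cebpd, Lpin1 and Ddit4, and the metallothionein genes Mt1 and Mt2. They were chosen by name and function, as the receptor and genes it is known to induce, with earlier results of these data known. Each symbol matched 1 of the 54281 gene IDs in the expression table. All 10 passed the filter on low values that left 11568 genes for testing. Zbtb16 and Cebpd passed it in only 3 libraries each, and for Cebpd those were all livers of DEN/HFD mice.

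The livers came from male C57BL6J mice aged 9.5 months. DEN/HFD mice were injected with 25 mg/kg of the liver carcinogen diethylnitrosamine (DEN) at 2 weeks of age and, after a spell on chow, ate a high-fat diet (HFD, 60% of its energy from lard) for 32 weeks. Chow mice received the vehicle in place of DEN and stayed on chow, so the effects of carcinogen and diet cannot be told apart. Within each diet, mice were injected intraperitoneally with MCOPPB, a nociceptin receptor agonist, at 5 mg/kg or with saline, on 5 consecutive days followed by 2 days without injection, for 3 cycles (21 days). On chow this gave 3 saline and 5 MCOPPB livers and under DEN/HFD 4 and 3, and the labels name no engineered allele. Every group was injected, and no uninjected mice were analysed here.

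Glucocorticoids, released by the adrenal gland in stress, in fasting and on a daily rhythm, bind the receptor encoded by Nr3c1 in the cytoplasm, where chaperones hold it. The bound receptor enters the nucleus and switches on genes such as Fkbp5, whose product lowers the receptor's affinity for hormone, and Tsc22d3, which encodes the anti-inflammatory protein GILZ. In liver it also drives gluconeogenesis. Metallothioneins are small cysteine-rich proteins that bind zinc and copper, and their genes respond both to glucocorticoids and, through the zinc-sensing factor MTF1, to metals.

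The promoters of Mt1 and Mt2 are shown for the short DNA motif by which metals are known to act, and that of Sgk1 for the motif of the glucocorticoid receptor. All sequences are from RefSeq (build GRCm38.p6). Promoter windows of 300 bases, 250 before and 50 after an annotated start, were searched for 7 of the 10 genes. Nr3c1 was left out of the search by choice, and Zbtb16 and Cebpd matched no window. Capitals in the first pair mark the core of the metal response element, searched on both strands as TGCACNC or TGCGCNC.
Mt1, chr8:94178839-94179081, plus strand: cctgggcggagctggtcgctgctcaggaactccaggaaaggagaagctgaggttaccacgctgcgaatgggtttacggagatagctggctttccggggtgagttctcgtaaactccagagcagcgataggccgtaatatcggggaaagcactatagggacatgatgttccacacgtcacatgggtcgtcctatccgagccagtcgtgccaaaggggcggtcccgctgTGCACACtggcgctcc
Mt2, chr8:94172368-94172617, plus strand: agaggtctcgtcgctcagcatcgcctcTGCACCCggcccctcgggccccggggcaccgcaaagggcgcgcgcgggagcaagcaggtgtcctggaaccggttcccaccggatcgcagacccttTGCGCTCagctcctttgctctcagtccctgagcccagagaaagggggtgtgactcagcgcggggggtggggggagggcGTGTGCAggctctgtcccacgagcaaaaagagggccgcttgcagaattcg
Capitals in the next stretch mark the palindromic glucocorticoid response element, searched as AGAACA and TGTTCT with any 3 bases between them.
Sgk1, chr10:21993661-21993755, plus strand: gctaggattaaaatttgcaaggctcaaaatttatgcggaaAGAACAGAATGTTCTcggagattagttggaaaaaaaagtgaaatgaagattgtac
The whole Mt2 window held 4 metal motif matches and the Mt1 window 3, of which 3 and 1 lie in the bases printed. Of 32851 mouse promoter windows of this length, 25.7% held at least 1 such match, 1.97% at least 3 and 0.518% at least 4. The Ddit4 window and 1 of the 6 Sgk1 windows held 1 match each, and the windows of Fkbp5, Tsc22d3 and Lpin1 held none. The full glucocorticoid element was found in 1 Sgk1 window, 189 bases before its start, and in 3 of the 32851 windows (0.00913%). The windows of Mt1, Mt2, Fkbp5 and Ddit4 held neither this element nor its half-site, TGTTCT on either strand. Half-sites were found in windows of Sgk1, Tsc22d3 and Lpin1, and 19.0% of the 32851 windows held at least 1. A match describes the letters only and was not tested as a binding site.

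Expression was measured by sequencing of libraries made from 250 ng of liver RNA with 75-base reads. The deposited table holds log2 values from DESeq2's variance-stabilising transformation; levels are given here as normalized counts, obtained by reversing it, and differences in log2 units of the deposited scale. Differences are given ± SE and levels ± SD. Estimated depth ran from 9316800 to 18686000 reads per library, and mitochondrial transcripts took 12.0% to 31.0% of them, most in chow saline 2 and chow MCOPPB 4. Hepatocyte markers such as Alb were abundant in every library, and of 4 adrenal and kidney markers Cyp11b1, Umod and Kap were at 0 in all 15, while Star ranged from 0 to 37.3 normalized counts. The labels give 2 RNA integrity numbers per liver. The first was 9 to 9.7 in chow saline and 9.9 to 10 in chow MCOPPB livers without overlap, so that in chow mice RNA integrity and MCOPPB moved together. It was 8.7 to 9.2 in DEN/HFD MCOPPB livers, also without overlap with chow MCOPPB livers, and with this number in the fit 0 of all tested genes were called by limma for DEN/HFD in MCOPPB mice or for the common DEN/HFD effect (1559 and 1054 at an unadjusted p under 0.05). Each gene was tested with limma over all 15 libraries, with p-values adjusted over the 11568 genes by the Benjamini-Hochberg method and called at an adjusted p under 0.05.

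None of the 10 genes was called in any of the 7 comparisons. Among all genes, limma called 0.320% for MCOPPB on chow, 0.0259% for MCOPPB under DEN/HFD, 0.0519% for DEN/HFD in saline mice and 0.571% for DEN/HFD in MCOPPB mice. It called 0.372% for the MCOPPB effect common to both diets, 1.32% for the common DEN/HFD effect and 0.0692% for the difference between the MCOPPB effects on the 2 diets. At an unadjusted p under 0.05, 4 of the 10 differed with MCOPPB on chow (9.06% of all genes did), and all 4 were higher (4.76% of all genes). Members at this unadjusted threshold numbered 1 for MCOPPB under DEN/HFD (4.74% of all genes, either direction), 0 for DEN/HFD in saline mice (11.0%) and 3 for DEN/HFD in MCOPPB mice (12.3%). They numbered 1 for the difference between MCOPPB effects (5.90%), 2 for the common MCOPPB effect (6.50%) and 2 for the common DEN/HFD effect (16.7%). Cebpd is counted for DEN/HFD in MCOPPB mice and for the common DEN/HFD effect, though it passed the filter only in DEN/HFD livers. No member had groups without overlap in the 4 comparisons of treatments or diets, where 4.77%, 6.96%, 9.09% and 9.31% of all genes did so in turn. The members were chosen with earlier results of these data known, so these counts are a description of the set.

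**Figure D1:**
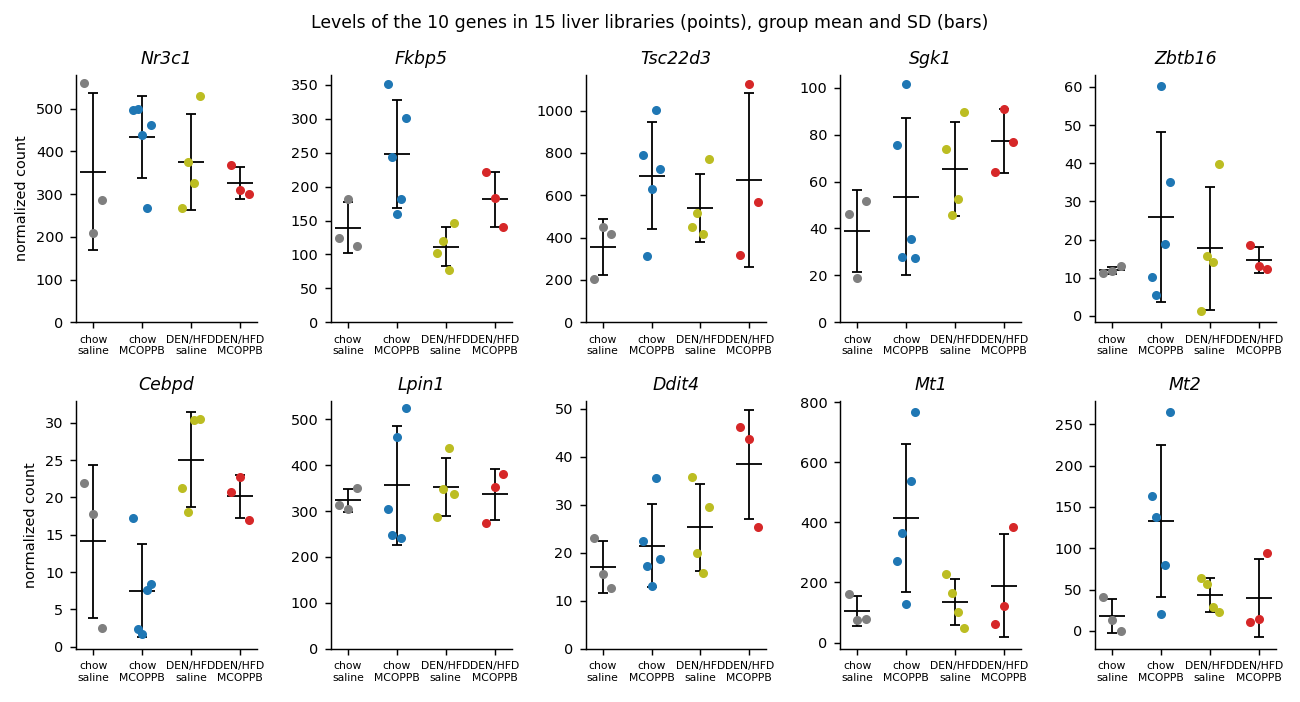
Normalized counts of the 10 genes (vertical axes, linear, 1 panel per gene) in the 4 groups; points are livers and black bars the group mean and SD. Mt1 and Mt2 reach their highest values in chow MCOPPB livers. In every panel, groups that differ only in MCOPPB or only in DEN/HFD overlap.

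Levels differed widely between members. Per kilobase of exon, the mean level over the 15 libraries was highest for Mt1 (187 ± 164 normalized counts), Tsc22d3 (134 ± 60.1) and Mt2 (115 ± 124). Nr3c1 (49.4 ± 14.4), Lpin1 (35.6 ± 8.26) and Fkbp5 (18.6 ± 8.02) lay below them. Ddit4 (14.2 ± 6.20), Sgk1 (11.9 ± 5.22), Cebpd (4.28 ± 2.53) and Zbtb16 (3.54 ± 2.88) were lowest. Neighbours in this order lay closer together than the larger of their SDs, apart from Lpin1 with Fkbp5 and Sgk1 with Cebpd.

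Nr3c1 (chr18:39410545-39519421, minus strand, GRCm38) encodes the glucocorticoid receptor itself. Its normalized counts were 560.4, 209.8 and 287 in chow saline livers and 498, 499.7, 438, 268 and 461 in chow MCOPPB livers. They were 267, 374, 326 and 530.0 in DEN/HFD saline and 369, 310.0 and 299 in DEN/HFD MCOPPB livers. The groups overlapped throughout, and the chow saline group alone held both the lowest and the highest value of the series. The difference for MCOPPB was 0.31 ± 0.25 on chow (adjusted p = 0.762, limma) and -0.13 ± 0.26 under DEN/HFD. The chow value was 0.06 without chow saline 2, 0.63 without chow saline 1 and 0.63 ± 0.36 with the first RNA integrity number in the fit. For DEN/HFD it was 0.12 ± 0.26 in saline and -0.32 ± 0.25 in MCOPPB mice, with 95% intervals reaching from -0.42 to 0.66 and from -0.83 to 0.20.

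Fkbp5 (chr17:28399094-28517527, minus strand) encodes the co-chaperone FKBP51, induced by the receptor and acting back on it. Its level was 140 ± 37.3 normalized counts in chow saline (n = 3) and 248 ± 79.9 in chow MCOPPB livers (n = 5), a ratio of 1.77. The ratio was 1.63 under DEN/HFD, where saline livers had 111 ± 28.7 (n = 4) and MCOPPB livers 182 ± 40.6 (n = 3). Fkbp5 was the only member whose unadjusted 95% interval for MCOPPB excluded 0 on both diets. Chow saline livers read 124, 182 and 113, and chow MCOPPB livers 352, 244, 160.3, 182.4 and 301, with 4 of 5 above every saline liver, 1 of them by under 1 count. DEN/HFD saline livers read 103, 119, 77.3 and 146, and DEN/HFD MCOPPB livers 222, 182 and 140.5, of which 2 of 3 lay above every saline liver. The log2 difference was 0.57 ± 0.21 on chow (adjusted p = 0.401) and 0.47 ± 0.22 under DEN/HFD (adjusted p = 1.00 after rounding) by limma. The common MCOPPB difference was 0.52 ± 0.15 (95% interval 0.22 to 0.83, adjusted p = 0.220), and the difference between diets was -0.10 ± 0.30. With the first RNA integrity number in the fit the chow difference was 0.37 ± 0.31 and the DEN/HFD one 0.43 ± 0.22, both within 2 SE of 0. Fkbp5 ranked 111 of 11568 by p for the common effect. With DEN/HFD, Fkbp5 differed by -0.21 ± 0.22 in saline and -0.31 ± 0.21 in MCOPPB mice.

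Tsc22d3 (chrX:140539528-140600659, minus strand) encodes GILZ. Chow saline livers had 203, 448 and 415 normalized counts and chow MCOPPB livers 791, 312, 629, 1004 and 725. Of the 5 MCOPPB livers, 4 were above all saline livers and chow MCOPPB 2 fell among them. DEN/HFD saline livers had 449, 518, 418 and 769.7, and DEN/HFD MCOPPB livers 319.9, 1124 and 569.9, so the lowest and highest DEN/HFD values both came from MCOPPB mice. The log2 difference for MCOPPB was 0.80 ± 0.34 on chow (adjusted p = 0.505, limma), 0.17 ± 0.36 under DEN/HFD and 0.50 ± 0.25 in common. The chow value was 0.52 without chow saline 1 and 1.03 without chow MCOPPB 2. With the first RNA integrity number in the fit it was 0.87 ± 0.52, within 2 SE of 0. For DEN/HFD the log2 difference was 0.53 ± 0.36 in saline and -0.11 ± 0.34 in MCOPPB mice.

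Sgk1 (chr10:21882184-21999903, plus strand) encodes a kinase that promotes sodium transport and is induced by both glucocorticoids and mineralocorticoids. Its counts were 46.0, 18.9 and 51.7 in chow saline, and 75.7, 27.8, 101.5, 35.6 and 27.3 in chow MCOPPB livers. DEN/HFD saline livers had 73.8, 45.9, 52.5 and 89.6 and DEN/HFD MCOPPB livers 64.0, 91.0 and 76.9. The lowest DEN/HFD liver had 45.9, and 4 of the 8 chow livers lay below it. The common DEN/HFD difference was 0.35 ± 0.16 (adjusted p = 0.265, limma), made up of 0.36 ± 0.23 in saline and 0.33 ± 0.22 in MCOPPB mice. With MCOPPB the differences were 0.17 ± 0.22 on chow and 0.14 ± 0.23 under DEN/HFD. When the first RNA integrity number entered the fit, the DEN/HFD difference in MCOPPB mice became -0.03 ± 0.38. The one in saline mice became 0.22 ± 0.26 and the common one 0.17 ± 0.25.

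Cebpd (chr16:15887286-15891031, plus strand) encodes a leucine-zipper transcription factor of the acute-phase and adipogenic programmes. It passed the filter in only 3 libraries, all of DEN/HFD mice, and so was tested because it is high there. Its DEN/HFD differences are therefore given as a description. Chow saline livers had 22, 17.8 and 2.51 normalized counts and chow MCOPPB livers 17.2, 2.30, 1.75, 7.66 and 8.46, whereas DEN/HFD saline livers had 21.3, 18.02, 30.4 and 30.5 and DEN/HFD MCOPPB livers 20.7, 22.7 and 17.0. In MCOPPB mice, 2 of 3 DEN/HFD livers were above every chow liver and the remaining one just below the highest. The DEN/HFD difference was 0.36 ± 0.13 in common (95% interval 0.08 to 0.64, adjusted p = 0.178, limma). It was 0.31 ± 0.20 in saline and 0.41 ± 0.19 in MCOPPB mice, the latter at an adjusted p of 0.395. With the first RNA integrity number in the fit the common DEN/HFD difference was 0.28 ± 0.22. MCOPPB differences were -0.20 ± 0.19 on chow and -0.10 ± 0.20 under DEN/HFD. These are at most 29.1 estimated reads a library, and 562 exonic bases overlap Spidr on the opposite strand (11.2 to 39.9 normalized counts). The library kit is directional but the strand used in counting is not given in the sources used here, so the reads of the 2 genes may not be separable.

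Zbtb16 (chr9:48654297-48836222, minus strand) encodes the zinc-finger repressor PLZF, a strongly glucocorticoid-induced gene in many tissues. It was near 12 normalized counts in all chow saline livers (11.2 to 13.0) and spread from 5.56 to 60.3 in chow MCOPPB, 1.29 to 39.7 in DEN/HFD saline and 12.2 to 18.5 in DEN/HFD MCOPPB livers. Its log2 differences between groups ranged from -0.18 ± 0.25 (DEN/HFD in MCOPPB mice) to 0.25 ± 0.25 (MCOPPB on chow). Every pair of groups overlapped.

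Lpin1 (chr12:16535669-16610966, minus strand) encodes lipin 1, a phosphatidate phosphatase that also coactivates fatty acid oxidation genes. Its group means lay between 323 ± 25.1 and 356 ± 130 normalized counts, and its 4 log2 differences between groups lay within 0.1 of 0, each with an SE of 0.21 or 0.22. The widest group was chow MCOPPB, from 240.3 to 525. The 95% interval for MCOPPB on chow, from -0.38 to 0.51, leaves room for differences in either direction.

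Ddit4 (chr10:59949669-59951834, minus strand) encodes REDD1, an inhibitor of mTORC1 induced by glucocorticoids, hypoxia and energy stress. Its counts were 23.1, 15.5 and 12.6 in chow saline and 22.5, 17.3, 13.1, 35.7 and 18.6 in chow MCOPPB livers. DEN/HFD saline livers had 35.9, 19.9, 15.8 and 29.6, and DEN/HFD MCOPPB livers 46.2, 43.7 and 25.4. The group means were 17.1 and 21.4 without and with MCOPPB on chow and 25.3 and 38.4 under DEN/HFD, with overlap between every neighbouring pair. The common DEN/HFD difference was 0.25 ± 0.12 (adjusted p = 0.303, limma) and the common MCOPPB difference 0.16 ± 0.12. With the first RNA integrity number in the fit the common DEN/HFD difference was 0.21 ± 0.19.

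**Figure D2:**
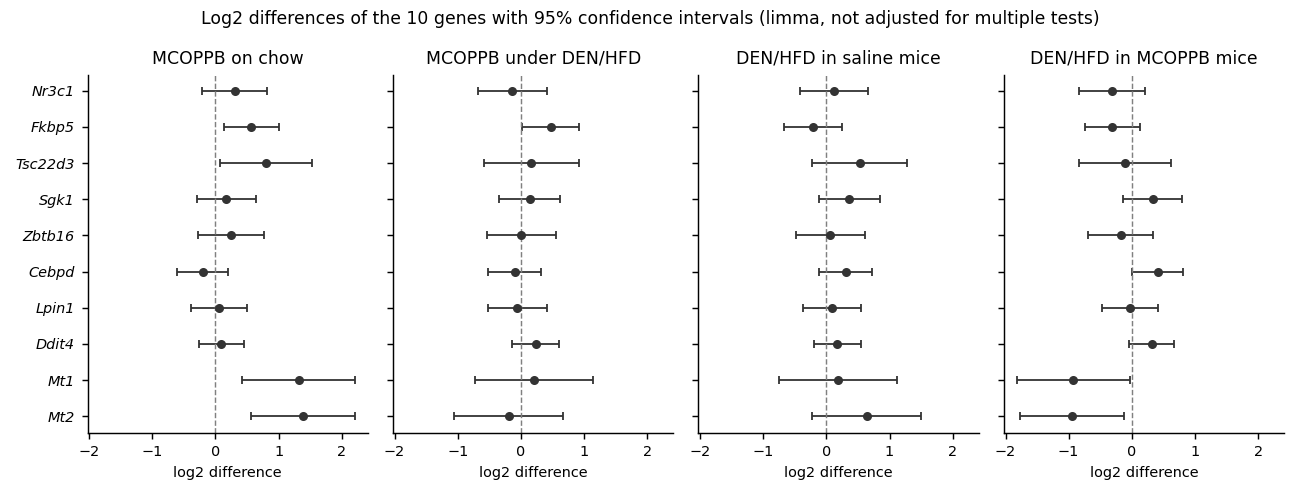
Log2 differences of the 10 genes (horizontal axes) in 4 comparisons, 1 panel each; points are limma estimates and bars their 95% confidence intervals, not adjusted for multiple tests. Fkbp5, Tsc22d3, Mt1 and Mt2 have intervals above 0 for MCOPPB on chow, and Mt1 and Mt2 intervals below 0 for DEN/HFD in MCOPPB mice. RNA integrity, which did not overlap between the groups of either comparison, is not in these fits.

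The metallothionein genes lie on the plus strand of chromosome 8, Mt2 at chr8:94172664-94173568 and Mt1 at chr8:94179082-94180327, 5513 bases apart. For MCOPPB on chow they had the largest log2 differences of the set. Mt1 read 163, 76.0 and 77.2 normalized counts in chow saline livers and 273, 365, 128, 538 and 767 in chow MCOPPB livers, a ratio of means of 3.93. Mt2 read 40.6, 12.9 and 0 in chow saline and 164, 138, 19.99, 79.5 and 265 in chow MCOPPB livers, a ratio of 7.48. For both genes 4 of 5 MCOPPB livers were above every saline liver, and chow MCOPPB 3 was the exception. The value of 0 was in chow saline 3, where a count of 0 allows up to 2.51 normalized counts (3 reads, counting error only).

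The log2 difference for MCOPPB on chow was 1.39 ± 0.39 for Mt2 (95% interval 0.57 to 2.21, adjusted p = 0.213) and 1.32 ± 0.42 for Mt1 (0.43 to 2.21, adjusted p = 0.295) by limma. These are ranks 126 and 243 among 11568 p-values. Over 26 alternative settings the adjusted p of any member was lowest for Mt2, at 0.0600 without chow MCOPPB 3, where the difference was 1.68. The transformed scale compresses low counts, and on log2(normalized count + 1) the Mt2 difference was 3.60 ± 1.01 and the Mt1 difference 1.82 ± 0.60, again not called. With the first RNA integrity number in the fit the differences were 1.06 ± 0.58 for Mt2 and 1.08 ± 0.64 for Mt1.

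In DEN/HFD mice 1 of 3 MCOPPB livers stood above every saline liver for each gene. Mt1 read 227, 164, 103 and 50.0 in saline and 62.7, 120.4 and 384 in MCOPPB livers. Mt2 read 64.5, 56.9, 28.5 and 23.4 in saline and 10.5, 13.9 and 93.7 in MCOPPB livers, so that for both genes DEN/HFD MCOPPB 3 was the highest liver on this diet and, for Mt2, the other two MCOPPB livers were the lowest. The differences were 0.21 ± 0.44 for Mt1 and -0.19 ± 0.41 for Mt2. The difference between the MCOPPB effects on the 2 diets was -1.58 ± 0.57 for Mt2 (adjusted p = 0.717, limma) and -1.11 ± 0.61 for Mt1 (adjusted p = 0.836), so neither was called. With the first RNA integrity number in the fit it was -1.32 ± 0.66 for Mt2 and -0.93 ± 0.73 for Mt1.

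Compared along the diet axis, Mt1 differed by 0.18 ± 0.44 and Mt2 by 0.64 ± 0.41 with DEN/HFD in saline mice. In MCOPPB mice the DEN/HFD difference was -0.93 ± 0.42 for Mt1 (adjusted p = 0.378) and -0.95 ± 0.39 for Mt2 (adjusted p = 0.318) by limma. With the first RNA integrity number in the fit it was -0.62 ± 0.76 for Mt1 and -0.51 ± 0.69 for Mt2, each within 1 SE of 0. This comparison shares its chow MCOPPB livers with the comparison of MCOPPB on chow, so the 2 sets of values are not independent. Leaving out DEN/HFD MCOPPB 3 changed the difference to -1.43 for Mt1 and -1.35 for Mt2; leaving out DEN/HFD MCOPPB 1 changed it to -0.54 and -0.72.

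Mt1 and Mt2 varied together from liver to liver. Over the 15 libraries Pearson's r was 0.873 (permutation p = 1e-05, the smallest that 100000 permutations can give; adjusted p = 0.00045 over 45 pairs of members) and Spearman's rho 0.882 (permutation p = 4e-05, adjusted p = 0.0018). Without the 2 libraries farthest from the median of Mt1, r was 0.857. For deviations from the group means, r was 0.812 (permutation p = 0.00236, adjusted p = 0.106). The permutations over the 15 libraries ignored the groups, so differences between groups enter those p-values. In them no other pair of members reached an adjusted p under 0.05, and within groups no pair did. Within groups 26 of the 45 pairs had a positive r, with a median of 0.0826. Mt2 counts were 0% to 24.9% of Mt1 counts in saline and 14.8% to 60.1% in MCOPPB livers on chow, and 27.8% to 46.8% and 11.5% to 24.4% under DEN/HFD. The 2 genes are similar in sequence, and how reads shared between them were counted is not given in the sources used here. In Mt2, 432 exonic bases overlap Gm45774 on the opposite strand, which had at most 1.15 normalized counts.

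**Figure D3:**
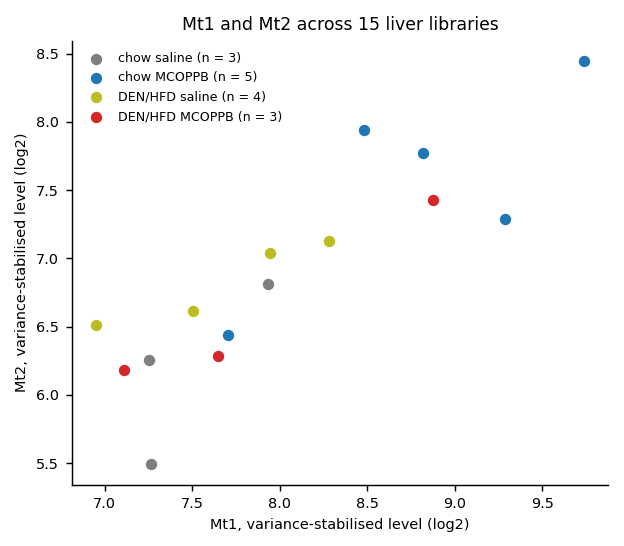
Level of Mt2 (vertical axis) against Mt1 (horizontal axis) on the deposited log2 scale, 1 point per liver, coloured by group. The points lie along a rising band (r = 0.873) whose upper end holds chow MCOPPB livers.

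**Figure D4:**
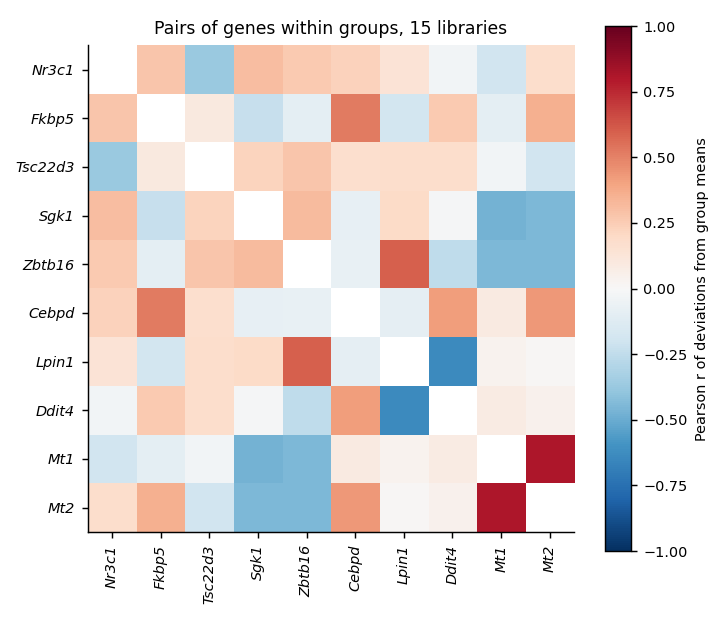
Pearson r between every pair of the 10 genes, computed over 15 libraries on deviations from the group means (colour scale from -1 to 1, diagonal left blank). Mt1 with Mt2 (0.812) stands in a field whose median is 0.0826.

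The spread between livers of a group set the precision. The within-group SD on the log2 scale was 0.70 for Mt1, 0.63 for Mt2 and 0.55 for Tsc22d3, against a median of 0.30 over all tested genes, and 98.1%, 97.1% and 94.4% of tested genes had a smaller one. Ddit4 (0.17) and Cebpd (0.22) had the smallest SDs of the set on this scale, which compresses low counts such as theirs. In normalized counts Cebpd ran from 1.75 to 17.2 within chow MCOPPB livers. Fkbp5, at 0.29, was close to the median, and its difference of 0.57 for MCOPPB on chow was smaller than those of Mt1, Mt2 and Tsc22d3.

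Taking the 10 genes as a list, the median log2 difference for MCOPPB on chow was 0.28, with 9 of 10 above 0, beside a median of 0.00 and 50.1% above 0 over all tested genes. Under DEN/HFD it was 0.07 with 6 of 10 above 0. For DEN/HFD it was 0.18 in saline mice (9 of 10 above 0) and -0.14 in MCOPPB mice (3 of 10). Because the members and the gene lists were chosen with earlier results of these data known, list medians and counts are given as a description.

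A further 22 genes known as receptor targets in liver, all tested, gave a median of 0.22 for MCOPPB on chow with 17 above 0, none called and 2 higher at an unadjusted p under 0.05. Those 2 were Igfbp1, which binds insulin-like growth factors (0.64 ± 0.30), and Ppargc1a, a coactivator of gluconeogenic genes (0.54 ± 0.25). Under DEN/HFD the MCOPPB median was -0.24 with 7 of 22 above 0 and none called. For DEN/HFD the median was also 0.22 in saline mice, with 17 above 0, and -0.16 in MCOPPB mice, with 9 above 0. MCOPPB on chow and DEN/HFD in saline mice are both measured against the chow saline livers, so their values are not independent. Cdkn1a, the cell-cycle inhibitor p21, was called for DEN/HFD in MCOPPB mice (1.53 ± 0.27, adjusted p = 0.0152, limma) and in common (0.96 ± 0.23, adjusted p = 0.0491), and was the 1 gene of the list called in the former. Its means were 24.3 ± 16.6 in chow saline, 10.4 ± 6.10 in chow MCOPPB, 46.6 ± 29.2 in DEN/HFD saline and 126 ± 64.3 normalized counts in DEN/HFD MCOPPB livers. Cebpb, a transcription factor related to Cebpd, rose with DEN/HFD in common by 1.22 ± 0.26 (adjusted p = 0.0266), from 239 ± 137 to 830 ± 211 in saline mice. Only these 2 of 22 were called for the common DEN/HFD effect. With each library left out in turn, the common call held in 10 of 15 fits for Cebpb and in 2 of 15 for Cdkn1a, and the call of Cdkn1a in MCOPPB mice in 13 of 15.

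Of 17 genes for the receptor's chaperones, its cofactors and steroid metabolism, 16 were tested. Srd5a1, a 5α-reductase that inactivates glucocorticoids in liver, was the 1 called. It fell with MCOPPB in common by 0.60 ± 0.13 on the log2 scale (adjusted p = 0.0499, limma), with 822 ± 85.3 and 494 ± 106 normalized counts in chow saline and chow MCOPPB livers, and 591 ± 115 and 382 ± 63.2 in the DEN/HFD groups. The call of Srd5a1 held in 2 of the 15 fits that left out a library, with differences from -0.71 to -0.56 over all alternatives. Akr1d1, the 5β-reductase of bile acid synthesis and steroid clearance, differed by 1.12 ± 0.31 for MCOPPB on chow (adjusted p = 0.213), and Serpina6, the corticosteroid-binding globulin of plasma, by 0.85 ± 0.31 (adjusted p = 0.402). Hsd11b2, which inactivates cortisol and corticosterone in kidney, was at 0 in all libraries.

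Of 16 genes of metal handling 13 were tested, with a median of -0.10 for MCOPPB on chow and 4 above 0. None was called for MCOPPB on either diet. Cp, the copper-carrying ferroxidase ceruloplasmin, was called higher for DEN/HFD in MCOPPB mice (0.86 ± 0.19, adjusted p = 0.0462, limma) and in common (0.62 ± 0.15, adjusted p = 0.0444), and was the only one called in either; these calls held in 4 and 3 of 15 fits without a library. Slc30a10, a manganese exporter, differed by -0.49 ± 0.22 for MCOPPB on chow and 0.59 ± 0.23 under DEN/HFD, neither called. Mtf1, which encodes the zinc sensor of metallothionein genes, averaged 157 ± 45.9 in chow saline and 119 ± 79.9 normalized counts in chow MCOPPB livers.

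Acute-phase genes, which glucocorticoids and interleukin 6 induce together, had a median of 0.42 for MCOPPB on chow with 16 of 21 above 0 and none called. Orm2 differed by 2.25 ± 0.69 (adjusted p = 0.260) and Lcn2 by 2.08 ± 0.78 (adjusted p = 0.411). The list's mean level was 12.85 in chow MCOPPB 1 and 11.03 to 11.38 in the other chow MCOPPB livers, on the deposited log2 scale. That liver had the highest Fkbp5 and the second highest Mt2 and Tsc22d3 of its group, and the second lowest Mt1.

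Clock genes, to which glucocorticoid release is tied, were examined beside the set. For DEN/HFD in MCOPPB mice, 4 of 17 were called, all lower, among them Usp2 (-2.25 ± 0.28), Tef (-1.43 ± 0.26) and Per3 (-1.77 ± 0.33), with adjusted p from 0.000529 to 0.0190 by limma. Usp2, a clock-driven deubiquitinase, was also called for MCOPPB under DEN/HFD (-1.82 ± 0.29, adjusted p = 0.0312) and for the difference between MCOPPB effects (-2.25 ± 0.40, adjusted p = 0.0432), and Tef for the common DEN/HFD effect (-1.07 ± 0.20). The first of these held in 7 and the second in 3 of 15 fits without a library. The times of day at which the livers were taken are not given in the sources used here. For MCOPPB on chow 0 of 17 were called, with 4 at an unadjusted p under 0.05. Among 14 genes of fasting and feeding, Fgf21, a hormone of the fasting liver, was the 1 called (1.05 ± 0.21 for DEN/HFD in MCOPPB mice, adjusted p = 0.0258), and the call held in 9 of 15 fits without a library. Among 11 genes of ATF4 and hypoxia stress, the pathways that share Ddit4 as a target, Atf5 was called higher in the same comparison (1.27 ± 0.18, adjusted p = 0.00233). For the common DEN/HFD effect, Atf5 (0.86 ± 0.16) and Slc2a1 (0.58 ± 0.12) were called higher and Vegfa (-0.98 ± 0.23) lower. Without a library these calls held in 13, 10 and 5 of 15 fits.

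**Figure D5:**
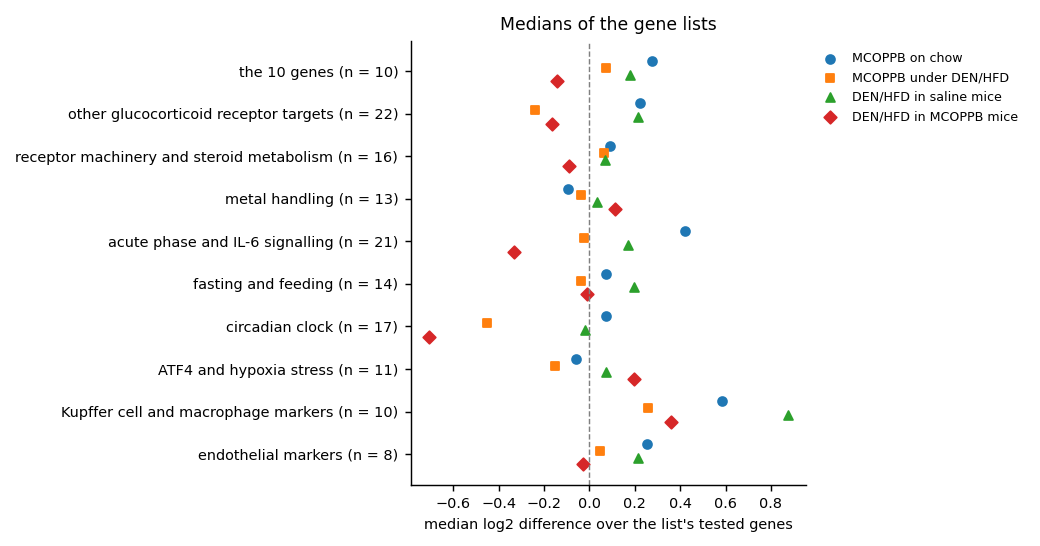
Median log2 difference (horizontal axis) over the tested genes of 10 gene lists (rows) in 4 comparisons (marker shapes). The 10 genes (0.28) and the other receptor targets (0.22) lie above 0 for MCOPPB on chow, where macrophage markers are at 0.59. For DEN/HFD in saline mice, measured against the same chow saline livers, these lists are at 0.18, 0.22 and 0.87.

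Levels of some cell type markers also differed between groups. The 10 markers of Kupffer cells and macrophages, all tested, summed to 1291 to 1589 normalized counts in chow saline and 2220 to 3668 in chow MCOPPB livers without overlap, and to 2347 to 4656 and 2932 to 5123 in DEN/HFD saline and MCOPPB livers. All 10 had a positive difference for MCOPPB on chow (median 0.59, 6 at an unadjusted p under 0.05, none called), and none was at 0 in all libraries. Cd68 (0.80 ± 0.17) and C1qc (0.67 ± 0.16) were called higher for the common DEN/HFD effect, as were Col1a2 of the stellate cell list (1.06 ± 0.24) and Cidec of the adipose list (2.17 ± 0.41), with adjusted p from 0.0177 to 0.0441 by limma. Without a library these calls held in 7, 4, 3 and 14 of 15 fits, in the same order. For the common DEN/HFD effect the stellate cell list had 5 genes above 0 and 3 below (median 0.34). The macrophage list had 9 above and 1 below (0.70), and the adipose list 3 above and 0 below (0.25). Endothelial markers, 8 of 8 tested, summed to 1188 to 1510 in chow saline and 1501 to 1828 in chow MCOPPB livers. The 4 red blood cell markers summed to 3502 to 10110 in chow saline and 7047 to 12510 in chow MCOPPB livers. For MCOPPB on chow 3 of them had a positive difference and 1 a negative one. Alas2 averaged 684 ± 276 in chow saline and 408 ± 242 in chow MCOPPB livers. The part of these shifts and of RNA integrity in the differences of Mt1, Mt2, Fkbp5 and Tsc22d3 was not tested beyond the fits with RNA integrity. In whole liver, a change in the number of cells of a type, in RNA per cell or in a marker's expression by another cell type cannot be told apart.

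By likeness over the 15 libraries, the non-member genes closest to Mt2 were AC123927.3 (Pearson r 0.868), Clmn (0.811) and As3mt, an arsenic methyltransferase (0.780). Those closest to Fkbp5 were Gm42519 (0.792), Pck2, the mitochondrial phosphoenolpyruvate carboxykinase (0.785), and Usp40 (0.778). They are the 3 highest for each member among the tested genes, given as a description without a test.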

How the data were processed

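RNA from 15 livers (separate mice, by the labels) was sequenced with 75-base single reads from a directional kit. Per the submitters' processing notes, Trimmomatic, STAR 2.7.0e, HTSeq and DESeq2 and the builds GRCm38 and mm10 were used, their order and settings not being given in the sources used here. The authors deposited log2 values made by DESeq2's variance-stabilising transformation, in which 5.4913 stands for 0 reads. This transformation compresses differences of low genes. Its inverse gave normalized counts. Only 15.3% to 45.2% of low values (under 20 reads) were whole reads within 0.01, so reads were not recovered and no count model was fitted.

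Gene IDs were named from the GENCODE annotation of GRCm38, and 54107 of 54281 were matched. Genes at least 1 log2 unit above the lowest value (22.5 normalized counts) in at least 3 libraries were tested with limma 3.58.1 (R 4.3.3) on 4 group means, with intensity-trended moderation (11 residual degrees of freedom). Common effects came from a model of diet and treatment. Tests were checked on simulated data. Correlations used 100000 permutations (Python 3, scipy).

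The members and the gene lists were chosen with earlier results of these data known. All members are named, with list genes that were called or had the 3 smallest p-values, and the 3 genes most like Mt2 and Fkbp5; Mtf1 and the list genes given only as levels were named after their values were seen. The values of 1 called clock gene are not reported here. Alternatives were the filter, scale, normalization, groups in the fit, RNA integrity, array weights, replicate block and each library left out.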

Additional observations from a re-analysis of the deposited data

Results flagged for a closer look

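Of 20 sets of values checked for a far sample, 1 met the criterion, as chance would give about 1 in 20. These were the 10 genes in chow MCOPPB and in DEN/HFD saline livers. The groups of 3 livers, chow saline and DEN/HFD MCOPPB, were not checked. Nr3c1 in chow MCOPPB 4 was the lowest of its group at 267.6 normalized counts, while the other chow MCOPPB livers had 438 to 499.7. The gap to the nearest liver was 0.782 of the group's range, above the 95% critical value of 0.71 for 5 samples. This library also had the highest share of mitochondrial transcripts (31.0%), and the part of that share in the low value was not tested. Without it the Nr3c1 difference for DEN/HFD in MCOPPB mice was -0.45 in place of -0.32, still not called by limma.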

How the results depend on the processing

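No member was called under any of the 26 alternatives (1762 values, lowest adjusted p = 0.0600). With the first RNA integrity number as a covariate 3 values turned in sign, none called: Sgk1 for DEN/HFD in MCOPPB mice (-0.0309), Mt1 (0.12) and Mt2 (0.53) for DEN/HFD in common; the cause was not tested. A further 69 sign changes lay within 1 SE. Counts of called genes among all tested moved more, in the order MCOPPB on chow, MCOPPB under DEN/HFD, DEN/HFD in saline mice, DEN/HFD in MCOPPB mice, difference of MCOPPB effects, common MCOPPB and common DEN/HFD (37, 3, 6, 66, 8, 43 and 153 as reported). With each library left out they ranged from 13 to 50, 0 to 6, 1 to 52, 18 to 157, 2 to 12, 25 to 42 and 6 to 460, the fewest for common DEN/HFD without DEN/HFD MCOPPB 3 and the most without DEN/HFD saline 4. The first RNA integrity number gave 15, 1, 0, 3, 3 and 0 for all but MCOPPB under DEN/HFD, and the second 0 (MCOPPB under DEN/HFD), 34, 2, 8 and 81 (the last 4). Without the filter there were 6 (MCOPPB under DEN/HFD), 2, 25 and 56 (the last 3), after quantile normalization 0 (MCOPPB under DEN/HFD), and on log2(normalized count + 8) 3 (DEN/HFD in saline mice) and 4 (difference), also 4 at + 1. Fitting only the groups compared gave 8 and 135 for MCOPPB under and DEN/HFD in MCOPPB mice. Array weights gave 8 and 3 for MCOPPB under DEN/HFD and DEN/HFD in saline mice, 285 for DEN/HFD in MCOPPB mice and 392 for common DEN/HFD. Without the 2 libraries of the highest mitochondrial share, an alternative chosen after seeing the data, there were 6, 14, 111 and 26 (MCOPPB under DEN/HFD, DEN/HFD in saline mice, DEN/HFD in MCOPPB mice, common MCOPPB). With replicate number as a block the counts were 23 (MCOPPB on chow), 0 (MCOPPB under DEN/HFD), 16 (DEN/HFD in MCOPPB mice), 2 (difference) and 69 (common DEN/HFD), and 0 members were called; the numbers do not pair the livers, since only 5 of 19 same-numbered pairs had deviations correlated above 0.1 (mean -0.0273; 17 of 64 other pairs, mean 0.00838). No call of a listed gene outside the set turned in sign under the alternatives run, and the calls of Usp2 and Atf5 in MCOPPB mice held in all 15 fits without a library and were lost with the first RNA integrity number (adjusted p = 0.276 and 0.310). A planned voom fit was not run because reads were not recovered. Depth limits Cebpd, Zbtb16 and Mt2, whose levels fell to a few reads or 0 in some libraries.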
